A study of Arabidopsis thaliana with 12 samples.

Results

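Transcript levels in cnu1 seedlings, which carry a mutation in the brassinosteroid receptor gene BRI1, were set against those in cnu2 seedlings, which carry a mutation in RLP44, a gene for a receptor-like protein. The samples are the 3 arrays of cnu1 and the 3 of cnu2, chosen by their titles, which makes 6 of the 12 arrays of the series, and all 27827 loci of the value table were compared. Both lines are suppressor mutants in the PMEIox background, so both also carry the transgene that overexpresses PMEI5, an inhibitor of pectin methylesterases, in the Col-0 background. The contrast therefore asks how the transcripts of the receptor mutant and of the receptor-like protein mutant differ when the transgene is shared. The labels call cnu1 and cnu2 by their line names and give neither the allele nor the promoter of the transgene, and each mutation is represented by a single line. The other arrays are 3 of PMEIox, the parent line with the transgene and neither mutation, and 3 of Col-0, the wild type. All were whole seedlings of Arabidopsis thaliana kept in the cold for 48 h, given light for 6 h and then kept in darkness at 22 °C for 4 days.

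Brassinosteroids are steroid hormones that promote cell elongation. BRI1 binds them at the cell surface, the kinase BIN2 is then shut off, and the transcription factors BZR1 and BES1 repress the genes for brassinosteroid synthesis and switch on growth genes. RLP44 has a leucine-rich repeat domain outside the cell and no kinase domain, and it is known from Arabidopsis to interact with BRI1 and its partner BAK1 and with the phytosulfokine receptor PSKR1. Pectin methylesterases remove methyl groups from the pectin of the cell wall, and their inhibition in PMEIox is the change against which both mutants were isolated.

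The labels describe the 3 arrays per genotype, lettered A, B and C, as biological replicates from successive weeks, without saying that a letter marks a week. Pearson correlations across loci, which are not independent replicates, were 0.992 to 0.993 between cnu1 arrays, 0.990 to 0.994 between cnu2 arrays and 0.988 to 0.993 between the lines. Intensities, taken to be on a log2 scale, ran from 0.785 to 13.9 with a median of 5.47. The lowest 20% of values lay under 3.21 and are called near background here, since no detection calls were used. Differences are log2 values of cnu1 minus cnu2, so 1 unit is 2-fold, and their median standard error was 0.137. PORA, the protochlorophyllide reductase of dark-grown seedlings, averaged 8.61 in cnu1 and 8.85 in cnu2, while LHCB1.1, a light-induced antenna gene, averaged 2.76 in cnu1 and 2.56 in cnu2, near background.

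PMEI5 (AT2G31430), the transgene's product, stood at 12.62, 12.69 and 12.62 on the cnu1 arrays, against 12.53, 12.62 and 12.69 on the cnu2 arrays. Both lines thus held the level of PMEIox, which averaged 12.66, and not that of Col-0, which averaged 5.91. The difference between the lines was 0.03 ± 0.67 (SE, limma adjusted p = 0.998). That error is wide because array A of Col-0 had a PMEI5 value of 8.19, where arrays B and C had 5.05 and 4.49. BRI1 (AT4G39400) had 7.73, 7.75 and 7.94 in cnu1, against 7.86, 7.75 and 7.76 in cnu2, and these values overlapped. RLP44 (AT3G49750) had 2.65, 3.28 and 3.24 in cnu1, against 2.66, 2.84 and 2.65 in cnu2, which overlapped as well and lay near background. The differences were 0.02 ± 0.09 for BRI1 (SE, limma adjusted p = 0.99) and 0.34 ± 0.20 for RLP44 (SE, limma adjusted p = 0.72). Transcript levels do not check a point mutation, so the line labels rest on the submitters here.

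In all, 158 of the 27827 loci (0.568%) passed the test between cnu1 and cnu2 at an adjusted p under 0.05 and are referred to as called. Of these, 105 (0.377%) were higher in cnu1 and 53 (0.19%) lower, and 59 differed at least 2-fold, 39 of them higher and 20 lower in cnu1. The 6 values did not overlap between the lines at any of the 158, where 13.2% of all loci had no overlap. At an unadjusted p under 0.05 there were 2379 loci (8.55%), 1253 higher (4.5%) and 1126 lower (4.05%). The smallest called difference was 0.42 in size and the largest uncalled one 1.80. Each of the 6 compared arrays weighed on the count: it was 66, 74 and 76 without cnu1 A, B or C and 84, 77 and 79 without cnu2 A, B or C. In bulk RNA, fewer cells of a type and less RNA per cell cannot be told apart for any locus given here.

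**Figure D1:**
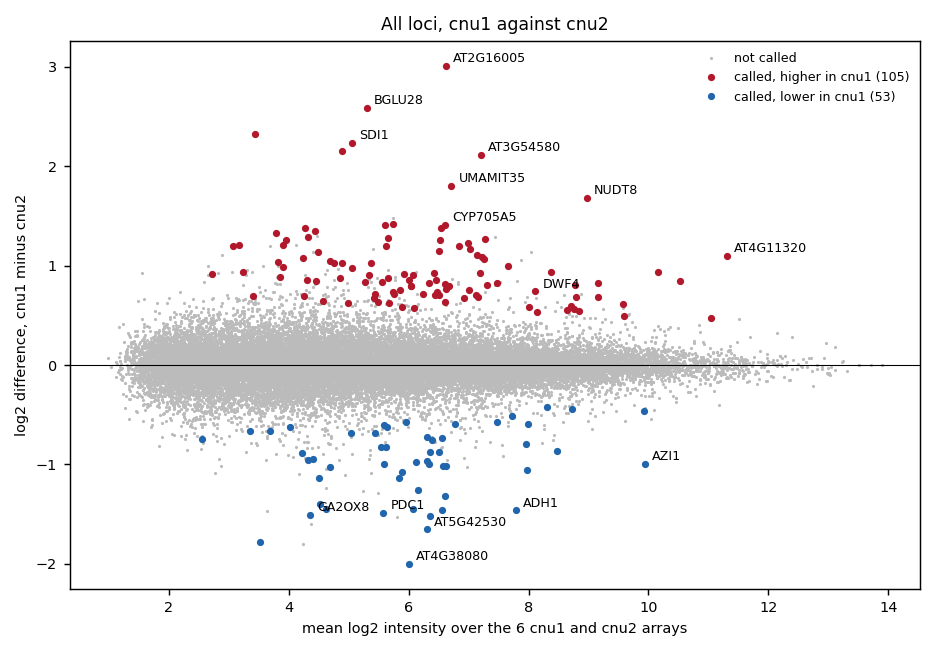
Each point is 1 locus, with its mean log2 intensity over the 6 cnu1 and cnu2 arrays on the horizontal axis and its log2 difference, cnu1 minus cnu2, on the vertical axis. Red points are the 105 loci called higher in cnu1, blue points the 53 called lower, and grey points the loci not called; the highest point is AT2G16005 at 3.01 and the lowest AT4G38080 at -2.00.

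Some of the genes that Arabidopsis switches on when sulfate is short were higher in cnu1. Of the 14 members of this list, 7 were called higher and 0 lower, where 0.377% of all loci were called higher. The list's median difference was 0.72, beside -0.00 over all loci, and all 14 differences were above 0. An unadjusted p under 0.05 was found for 12, all higher, where 4.5% of all loci had one with a higher cnu1 value. This list and those below were chosen with earlier results of these data known. Their counts beside the share of all loci therefore describe the lists and do not test them.

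BGLU28 (AT2G44460), a beta-glucosidase that breaks down glucosinolates, the sulfur-rich defence compounds, had 6.50, 6.54 and 6.75 in cnu1, against 3.78, 4.30 and 3.95 in cnu2. The highest cnu2 array was well below the lowest cnu1 array, and the difference of 2.59 ± 0.19 (SE, limma adjusted p = 0.000236) is 6.02-fold. SDI1 (AT5G48850), whose protein represses the synthesis of aliphatic glucosinolates under sulfur deficiency, had 6.19, 6.14 and 6.20 in cnu1, against 4.42, 3.86 and 3.54 in cnu2. The cnu1 arrays were nearly alike and the cnu2 arrays spread, and SDI1 was higher by 2.23 ± 0.26 (SE, limma adjusted p = 0.00338). The LSU genes are named for their response to low sulfur. LSU1 (AT3G49580) had 4.07, 3.304 and 3.64 in cnu1, against 2.43, 2.54 and 2.44 in cnu2, where it was near background. It was higher by 1.202 ± 0.17 (SE, limma adjusted p = 0.00929), and its neighbour LSU3 (AT3G49570) by 0.94 ± 0.17 (SE, limma adjusted p = 0.0355). LSU2 differed by 0.56 and was not called (limma adjusted p = 0.077).

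The enzymes and transporters of sulfate use ran the same way. APR1 (AT4G04610), which reduces activated sulfate, had 6.39, 6.52 and 6.41 in cnu1, against 5.73, 5.35 and 5.68 in cnu2, without overlap. It was higher by 0.85 ± 0.15 (SE, limma adjusted p = 0.0235). Of its paralogs, APR3 differed by 0.82 and APR2 by 0.29, and neither was called. SULTR1;2 (AT1G78000), the main sulfate uptake transporter of the root, had 9.87, 9.83 and 9.97 in cnu1, against 9.37, 9.38 and 9.07 in cnu2. Its difference of 0.61 ± 0.11 (SE, limma adjusted p = 0.0366) was the smallest of the 7 called. GGCT2;1 (AT5G26220), which degrades glutathione and so frees cysteine, was higher by 0.84 ± 0.15 (SE, limma adjusted p = 0.0355). The uptake transporter SULTR1;1 differed by 0.56 and the vacuolar exporter SULTR4;2 by 0.37, both uncalled.

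Set beside the parent line, with which both lines share a comparison, the list's median was 0.94 in cnu1 minus PMEIox and 0.22 in cnu2 minus PMEIox. BGLU28 differed from PMEIox by 2.54 in cnu1 and by -0.05 in cnu2, and SDI1 by 2.26 in cnu1 and by 0.03 in cnu2. APR1 was above PMEIox in both lines, by 1.58 in cnu1 and 0.73 in cnu2. For BGLU28 and SDI1, then, the cnu2 level was that of the parent line within the error of the difference. The calls of BGLU28, SDI1 and LSU1 remained when any single array was left out, with a highest adjusted p of 0.00353, 0.0224 and 0.0482. Leaving out cnu1 A, cnu1 C, cnu2 B or cnu2 C ended the calls of APR1, LSU3, GGCT2;1 and SULTR1;2 alike, and cnu1 B, cnu2 A, Col-0 B or a PMEIox array ended some of them (limma adjusted p from 0.0503 to 0.144), so that 3 to 7 members stayed called. In the 6 cnu1 and cnu2 arrays alone 5 were called, without GGCT2;1 (limma adjusted p = 0.0803) and SULTR1;2 (limma adjusted p = 0.117).

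**Figure D2:**
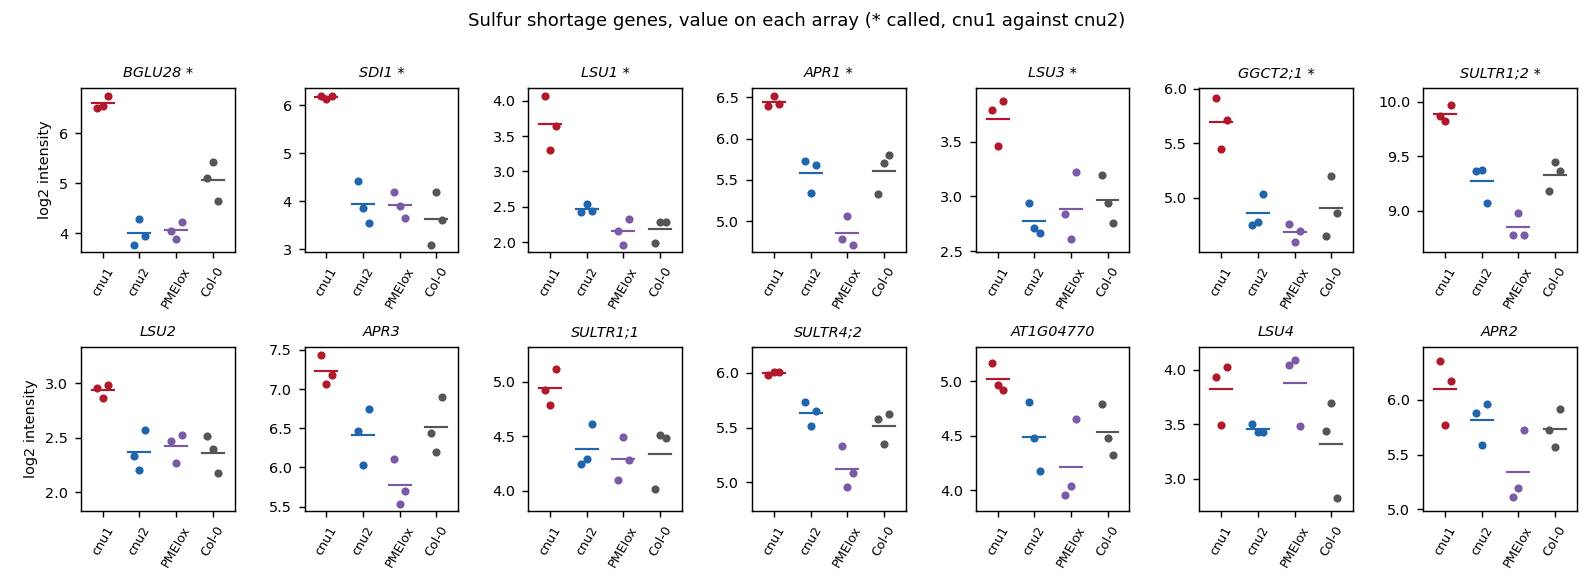
Log2 intensity of the 14 sulfur shortage genes on each of the 12 arrays, 1 panel a gene with its own vertical axis, with genotypes in the order cnu1, cnu2, PMEIox and Col-0; points are arrays and lines are group means. The 7 genes with an asterisk were called, and their 3 cnu1 points lie above all 3 cnu2 points.

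Genes of glucosinolate synthesis and breakdown are a separate list, and 0 of its 21 members were called. Its median was 0.01, and 2 members had an unadjusted p under 0.05, where 8.55% of all loci had one. MYB34, an activator of indole glucosinolate synthesis, came nearest with a difference of 0.68 (limma adjusted p = 0.138), and the myrosinase gene TGG2 differed by -0.50 (limma adjusted p = 0.247). CYP81F4 (AT4G37410), which modifies indole glucosinolates and was not on the list, was among the 15 largest rises. It had 4.50, 4.24 and 4.61 in cnu1, against 3.499, 3.13 and 2.73 in cnu2, where it was near background. Its difference was 1.33 ± 0.23 (SE, limma adjusted p = 0.0263), and it was not called without cnu1 A, B or C or cnu2 B or C (limma adjusted p from 0.0583 to 0.115). Against Col-0 it differed by 0.32 in cnu1 and by -1.01 in cnu2. The gene table places it over AT4G37409, which differed by 1.02 and was also called, so the signals of these overlapping loci cannot be counted as separate.

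Thalianol is a triterpene of Arabidopsis roots whose synthesis genes lie side by side on chromosome 5. The synthase and the first modifying enzymes were higher in cnu1: of 7 triterpene genes 3 were called higher and 0 lower, where 0.377% of all loci were called higher, and the list median was 0.51. Of the 7 differences 5 were above 0 and 2 below, the lowest being -0.15 in a gene not named here. THAS1 (AT5G48010), the thalianol synthase, had 4.999, 4.70 and 5.20 in cnu1, against 3.80, 3.88 and 3.34 in cnu2. CYP708A2 (AT5G48000), a thalianol hydroxylase, had 6.47, 6.15 and 6.73 in cnu1, against 5.07, 5.20 and 4.80 in cnu2. CYP705A5 (AT5G47990), which desaturates the hydroxylated product, had 7.38, 7.004 and 7.56 in cnu1, against 5.87, 6.50 and 5.32 in cnu2. In each of the 3 genes the lowest cnu1 array was array B, and no cnu2 value reached it.

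CYP708A2 was higher by 1.42 ± 0.18 (SE, limma adjusted p = 0.00515), CYP705A5 by 1.41 ± 0.24 (SE, limma adjusted p = 0.0206) and THAS1 by 1.29 ± 0.20 (SE, limma adjusted p = 0.0151). Against the wild type the cnu1 mean of CYP705A5 differed by 0.02 and the cnu2 mean by -1.40, and CYP708A2 differed by 0.39 in cnu1 and by -1.03 in cnu2. THAS1 differed from the wild type by 0.26 in cnu1 and by -1.04 in cnu2. Beside PMEIox, CYP705A5 differed by 3.23 in cnu1 and by 1.81 in cnu2, and CYP708A2 by 1.99 in cnu1 and by 0.57 in cnu2. Both lines were thus above the parent in these 2 genes, whereas THAS1 differed from PMEIox by 0.87 in cnu1 and by -0.43 in cnu2. The call of CYP705A5 ended without cnu1 A, cnu1 C or cnu2 A (limma adjusted p from 0.0779 to 0.0956) and in the 6 cnu1 and cnu2 arrays alone (limma adjusted p = 0.127). That of THAS1 ended without cnu1 A, cnu1 C or cnu2 C (limma adjusted p from 0.0624 to 0.0851), so that 1 to 3 members stayed called in the fits without an array. The genes of the marneral cluster were not called: MRN1 differed by 0.51, CYP71A16 by 0.35 and CYP705A12 by -0.07.

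Among brassinosteroid synthesis genes, the classic targets of feedback repression, 2 of 10 were called higher in cnu1 and 0 lower, where 0.377% of all loci were called higher. An unadjusted p under 0.05 with a higher cnu1 value was found for 5 members, where 4.5% of all loci had one, and the list median was 0.24. DWF4 (AT3G50660), the rate-limiting C-22 hydroxylase, had 8.48, 8.38 and 8.60 in cnu1, against 7.80, 7.87 and 7.56 in cnu2. BR6OX1 (AT5G38970), an oxidase of the last steps, had 5.79, 5.93 and 6.22 in cnu1, against 5.04, 5.17 and 5.23 in cnu2. Neither gene overlapped between the lines. BR6OX1 was higher by 0.84 ± 0.14 (SE, limma adjusted p = 0.0235) and DWF4 by 0.74 ± 0.14 (SE, limma adjusted p = 0.0366).

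CPD, a further member of the list, had 9.55, 9.61 and 9.38 in cnu1, against 9.03, 9.08 and 9.04 in cnu2. Its difference of 0.46 ± 0.10 (SE, limma adjusted p = 0.0697) was not called. BR6OX2, which makes brassinolide, differed by 0.39 and CYP90D1, a C-23 hydroxylase, by 0.35, both without overlap and uncalled. The sterol genes upstream lay near 0, with DWF1 at 0.14, STE1 at 0.02 and DWF5 at -0.00, as did DET2, the steroid reductase, at 0.08. Both lines stood above the parent: DWF4 differed from PMEIox by 1.89 in cnu1 and 1.15 in cnu2, CPD by 1.32 in cnu1 and 0.86 in cnu2, and BR6OX2 by 1.54 in cnu1 and 1.15 in cnu2. The list median against PMEIox was 0.88 in cnu1 and 0.53 in cnu2. Summed per array on the log2 scale, the list ran from 11.53 to 11.66 in cnu1 and from 11.23 to 11.42 in cnu2. The sums were 10.85 to 11.01 in PMEIox and 11.29 to 11.38 in Col-0, so the wild type lay within the cnu2 range and below cnu1. DWF4 was not called without any single array of cnu1 or cnu2, nor without Col-0 A, Col-0 B or PMEIox C (limma adjusted p from 0.0544 to 0.144), and BR6OX1 was not without cnu1 B, cnu1 C or any cnu2 array (limma adjusted p from 0.0624 to 0.103). In a fit of the 6 cnu1 and cnu2 arrays alone, neither was called (limma adjusted p = 0.0608 for DWF4 and 0.0584 for BR6OX1).

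**Figure D3:**
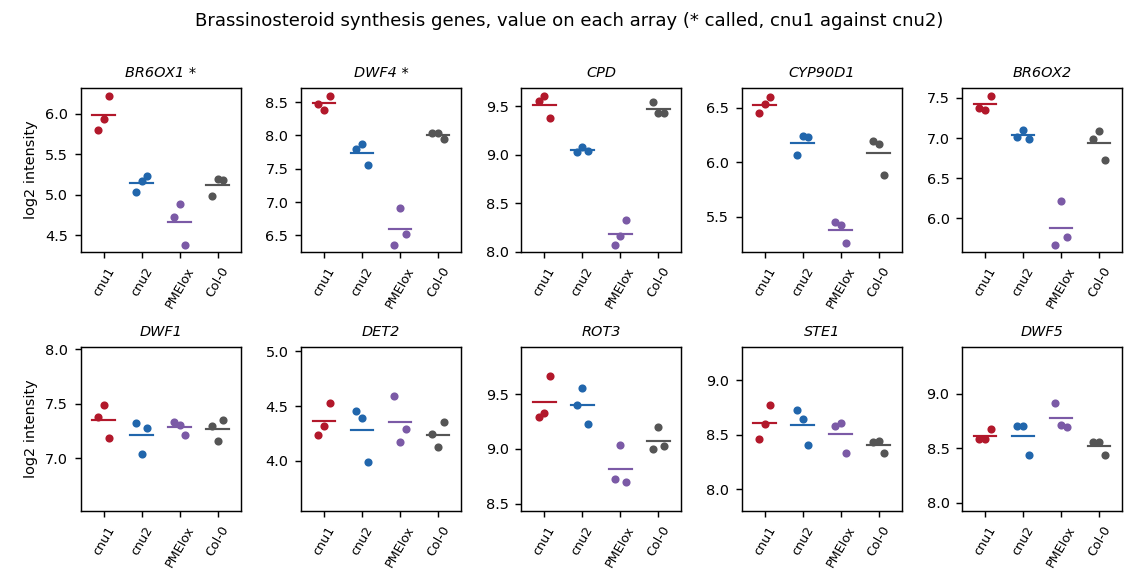
Log2 intensity of the 10 brassinosteroid synthesis genes on each array, 1 panel a gene with its own vertical axis; points are arrays, lines are group means, and an asterisk marks the 2 called genes. In BR6OX1, DWF4, CPD, CYP90D1 and BR6OX2 the cnu1 points lie above the cnu2 points and both lie above PMEIox.

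Other steps of the pathway gave no call. An unadjusted p under 0.05 was found for 8.55% of all loci. Among 7 genes that inactivate brassinosteroids 0 were called (2 at an unadjusted p under 0.05, both lower in cnu1; median -0.26). BAS1, the C-26 hydroxylase that inactivates brassinolide, had 8.74, 8.75 and 9.07 in cnu1, against 9.17, 9.26 and 9.0 in cnu2, values that overlapped, and a difference of -0.29 (limma adjusted p = 0.471). Of 15 receptors, coreceptors and proteins at the receptor 0 were called (1 at an unadjusted p under 0.05; median 0.15). In this list the coreceptor genes SERK1, BAK1 and BKK1 differed by 0.31, 0.02 and 0.16, the receptor homologs BRL1 and BRL3 by 0.15 and 0.28, and the receptor inhibitor BKI1 by 0.21. The 11 kinases and transcription factors downstream included 0 called (1 at an unadjusted p under 0.05; median 0.05). Here BIN2 differed by -0.08, BZR1 by 0.05, BES1 by -0.23 and its homolog BEH2 by 0.38 (limma adjusted p = 0.173).

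Genes that brassinosteroids induce did not shift one way. Of 15 such genes 0 were called, 6 had an unadjusted p under 0.05 (2 higher and 4 lower in cnu1), and the median was -0.10. Among all loci 4.5% had such a p with a higher cnu1 value and 4.05% with a lower value. PRE1, a small helix-loop-helix protein that promotes elongation, differed by 0.57 (limma adjusted p = 0.254), whereas ACS5, an ethylene synthesis gene, differed by -0.65 (limma adjusted p = 0.0892). TCH4, which encodes a wall-modifying XTH, differed by 0.00 and EXPA8 by 0.08. The phytosulfokine list, included because RLP44 acts with its receptor, had 0 of 9 called (1 at an unadjusted p under 0.05; median -0.05). The receptor genes PSKR1, near background, and PSKR2 differed by 0.21 and -0.25, the receptor PSY1R by 0.16, and the precursor genes PSK2 and PSK4 by -0.41 and -0.02.

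Some genes of the response to low oxygen, those of fermentation among them, were lower in cnu1. Of 11 members 0 were called higher and 3 lower, where 0.19% of all loci were called lower. The list median was -0.52, and 10 of 11 differences were below 0. An unadjusted p under 0.05 was found for 7, all lower, where 4.05% of all loci had one with a lower cnu1 value.

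ADH1 (AT1G77120), the alcohol dehydrogenase of fermentation, had 6.78, 7.14 and 7.26 in cnu1, against 8.61, 8.22 and 8.73 in cnu2. PDC1 (AT4G33070), the pyruvate decarboxylase of the step before it, had 4.97, 4.37 and 5.16 in cnu1, against 6.12, 6.72 and 6.12 in cnu2. HB1 (AT2G16060), a haemoglobin that scavenges nitric oxide, had 7.31, 7.52 and 7.50 in cnu1, against 8.44, 8.45 and 8.61 in cnu2. In each of the 3 genes the cnu1 arrays lay below every cnu2 array. The differences were -1.46 ± 0.19 for ADH1 (SE, limma adjusted p = 0.00597), -1.49 ± 0.25 for PDC1 (SE, limma adjusted p = 0.0203) and -1.06 ± 0.15 for HB1 (SE, limma adjusted p = 0.00744). The call of PDC1 ended without cnu1 A, cnu1 B or cnu2 B (limma adjusted p from 0.0649 to 0.0803) and in the 6 arrays alone (limma adjusted p = 0.0577).

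Beside PMEIox the order differed from that of the sulfur genes. HB1 differed from PMEIox by -0.01 in cnu1 and by 1.04 in cnu2, PDC1 by -0.21 in cnu1 and by 1.28 in cnu2, and ADH1 by -0.66 in cnu1 and by 0.81 in cnu2. Over the list, the median against PMEIox was -0.01 in cnu1 and 0.40 in cnu2. Against Col-0, ADH1 differed by -1.10 in cnu1 and 0.36 in cnu2, and PDC1 by -0.80 in cnu1 and 0.69 in cnu2. The list's summed log2 level per array was 9.87 to 10.22 in cnu1, 10.78 to 11.00 in cnu2, 10.04 to 10.29 in PMEIox and 10.30 to 10.77 in Col-0. Among the uncalled members without overlap, the sucrose synthase SUS4 differed by -0.94 (limma adjusted p = 0.176), the desaturase FTM1 by -0.78 (limma adjusted p = 0.247), and the oxygen-sensing oxidases PCO2 and PCO1 by -0.52 (limma adjusted p = 0.0662) and -0.40 (limma adjusted p = 0.313). The transcription factors HRE1 and HRE2, near background, differed by 0.09 and -0.14, LBD41 by -0.17 and SUS1 by -0.05.

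**Figure D4:**
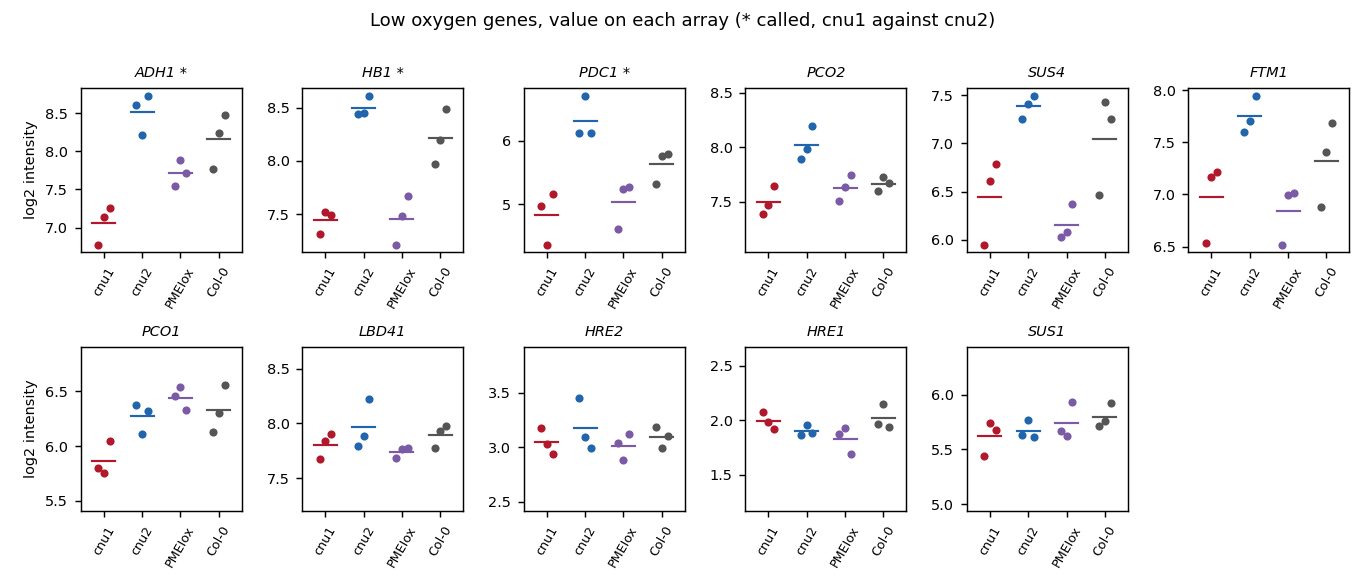
Log2 intensity of the 11 low oxygen genes on each array, 1 panel a gene with its own vertical axis; points are arrays, lines are group means, and an asterisk marks the 3 called genes. In ADH1, HB1 and PDC1 the cnu1 points lie below the cnu2 points; PMEIox lies near cnu1 in HB1 and PDC1 and between the lines in ADH1.

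Other hormone lists gave at most 1 call in each direction, where 0.377% of all loci were called higher and 0.19% lower. An unadjusted p under 0.05 was found for 8.55% of all loci. GA2OX8 (AT4G21200), an oxidase that inactivates gibberellin precursors, had 3.53, 3.77 and 3.51 in cnu1, against 5.14, 5.09 and 5.09 in cnu2, and no cnu1 value came near the cnu2 values. It was lower, with a difference of -1.50 ± 0.19 (SE, limma adjusted p = 0.00437), which made it the single call among 15 gibberellin genes (3 at an unadjusted p under 0.05; median 0.05). Its mean was below that of PMEIox in both lines, by -2.45 in cnu1 and -0.94 in cnu2. The synthesis gene GA20OX2 differed by -0.38 and the receptor gene GID1B by -0.26, both uncalled.

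Among 16 ethylene genes 1 was called higher and 1 lower, and 8 had an unadjusted p under 0.05, 1 higher and 7 lower (median -0.10). Over all loci 4.5% had such a p with a higher cnu1 value and 4.05% with a lower one, and 0.377% were called higher and 0.19% lower. Both called genes encode ACC synthases, which make the ethylene precursor. ACS8 (AT4G37770) had 6.09, 5.86 and 6.25 in cnu1, against 7.14, 6.84 and 6.84 in cnu2, a difference of -0.87 ± 0.13 (SE, limma adjusted p = 0.00937). ACS11 (AT4G08040) ran the other way, with 6.27, 6.32 and 6.57 in cnu1, against 5.24, 5.41 and 5.76 in cnu2, and a difference of 0.92 ± 0.18 (SE, limma adjusted p = 0.0478). Neither gene overlapped between the lines, but ACS11 was called in 2 of 12 fits with a single array left out, those without cnu2 C or Col-0 C (limma adjusted p from 0.0552 to 0.173 in the other 10). In the 6 cnu1 and cnu2 arrays alone neither was called (limma adjusted p = 0.0584 for ACS8 and 0.0667 for ACS11). The receptor gene ETR2 differed by -0.37 (limma adjusted p = 0.24) and ACS4 by -0.43 (limma adjusted p = 0.331).

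Of 25 auxin genes 1 was called, where over all loci 0.568% were called and 8.55% had an unadjusted p under 0.05. The called gene was IAA29 (AT4G32280), an auxin-induced transcriptional repressor. It had 7.45, 7.38 and 7.62 in cnu1, against 6.76, 6.83 and 6.75 in cnu2, and was higher by 0.70 ± 0.13 (SE, limma adjusted p = 0.0417). This call ended without any single array of cnu1 or cnu2, Col-0 B, PMEIox A or PMEIox C (limma adjusted p from 0.0535 to 0.16). SAUR9 differed by -0.77 (limma adjusted p = 0.073) and the auxin-conjugating GH3.1 by -0.62 (limma adjusted p = 0.0796), while the list median was 0.04. Of 17 jasmonate genes 0 were called (4 at an unadjusted p under 0.05; median 0.06), with VSP2, near background, at 0.58. Of 17 defence genes 1 was called, ICS1 (AT1G74710), the isochorismate synthase of salicylic acid synthesis, while the list median was 0.01. ICS1 had 6.71, 6.32 and 6.78 in cnu1, against 5.93, 5.87 and 5.87 in cnu2, and was higher by 0.71 ± 0.14 (SE, limma adjusted p = 0.0443). It stayed called without cnu1 B, PMEIox B or PMEIox C and in none of the other 9 fits with an array left out (limma adjusted p from 0.0607 to 0.18), nor in the 6 cnu1 and cnu2 arrays alone (limma adjusted p = 0.112).

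For the cell wall, the calls were few, where over all loci 0.568% were called and 8.55% had an unadjusted p under 0.05. Of 16 pectin methylesterases 1 was called, AT5G04970, which had 4.68, 4.70 and 4.70 in cnu1, against 5.40, 5.29 and 5.44 in cnu2. It was lower, with a difference of -0.68 ± 0.13 (SE, limma adjusted p = 0.0355). The list median was -0.05 and turned to 0.00 when the arrays were centred on the 9 reference genes, a scaling that moved the median of all loci by 0.05 and ended the call of AT5G04970 (limma adjusted p = 0.0553). Its call also ended without any array of cnu1 or cnu2 or without PMEIox A (limma adjusted p from 0.054 to 0.135). PME12 differed by -0.42 and PME5 by 0.29, uncalled. The 10 inhibitor genes gave 0 calls (2 at an unadjusted p under 0.05), with AT4G25250 at -0.65 (limma adjusted p = 0.242). Among 18 genes of pectin depolymerases, 0 were called (3 at an unadjusted p under 0.05, all higher; median 0.04), with AT4G24780 at 0.55 (limma adjusted p = 0.0556).

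Of 33 XTH genes, whose enzymes cut and rejoin xyloglucan, 0 were called and 8 had an unadjusted p under 0.05, 5 higher and 3 lower (median 0.01). The shares of all loci at such a p were 4.5% higher and 4.05% lower. XTH9 had 8.01, 7.82 and 7.72 in cnu1, against 7.15, 6.73 and 7.23 in cnu2, a difference of 0.81 that did not pass (limma adjusted p = 0.0924). XTH7 differed by -0.52 (limma adjusted p = 0.0953). The 25 expansins gave 0 calls (4 at an unadjusted p under 0.05), with EXPA17, near background, at -0.56 and EXPA18 at 0.60. Of 9 genes for cellulose of the primary wall 0 were called and 0 had an unadjusted p under 0.05, with differences from -0.12 for CESA2 to 0.19 for CESA5. Receptors that survey the wall gave 0 calls among 18 (2 at an unadjusted p under 0.05; median 0.13), with the peptide gene RALF23 at 0.52 (limma adjusted p = 0.368).

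Secondary wall genes are active where water-conducting cells lignify. None of the 18 was called, yet all 18 differences were above 0 and 12 had an unadjusted p under 0.05, where 4.5% of all loci did so with a higher cnu1 value. The list median was 0.44. IRX3, a cellulose synthase of the secondary wall, had 6.89, 6.58 and 7.10 in cnu1, against 6.56, 6.47 and 6.15 in cnu2, a difference of 0.46 (limma adjusted p = 0.273). COBL4 came nearest to the threshold with 7.998, 7.76 and 8.13 in cnu1, against 7.53, 7.49 and 7.12 in cnu2, and a difference of 0.58 (limma adjusted p = 0.0934). The laccase genes LAC2, IRX12 and LAC17 differed by 0.64, 0.44 and 0.50, the master regulators VND6 and VND7 by 0.50 and 0.14, and MYB46 by 0.45. Both lines were above PMEIox, with list medians of 1.004 in cnu1 and 0.56 in cnu2. The 15 vascular genes outside this list had 0 calls, 0 of them at an unadjusted p under 0.05, and a median of 0.06.

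The EARLI1 cluster holds 6 neighbouring genes for small lipid transfer-like proteins on chromosome 4. All 6 differences were below 0 (median -0.44), and 1 was called, where 0.19% of all loci were called lower. AZI1 (AT4G12470), known for its part in systemic immunity, had 9.28, 9.30 and 9.75 in cnu1, against 10.44, 10.55 and 10.31 in cnu2. It was lower, with a difference of -0.99 ± 0.16 (SE, limma adjusted p = 0.0149), and the call ended without cnu1 A, cnu1 B, cnu2 A or cnu2 B (limma adjusted p from 0.0598 to 0.0763). EARLI1 (AT4G12480) itself spread widely, with 2.85, 2.15 and 3.72 in cnu1, against 4.37, 4.92 and 3.84 in cnu2, and a difference of -1.47 ± 0.37 (SE, limma adjusted p = 0.152). These neighbours are similar in sequence, and whether their signals are fully separate on the array was not tested.

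Several of the largest rises fell on loci with no gene symbol. AT2G16005 had the largest, with 8.07, 8.0 and 8.31 in cnu1, against 4.59, 5.49 and 5.26 in cnu2, a gap wider than the spread of either line. Its difference was 3.01 ± 0.26 (SE, limma adjusted p = 0.000529), or 8.07-fold, and against PMEIox it differed by 3.31 in cnu1 and by 0.30 in cnu2. AT2G17080 had 5.99, 5.60 and 6.28 in cnu1, against 3.88, 3.45 and 4.08 in cnu2, and was higher by 2.15 ± 0.20 (SE, limma adjusted p = 0.000721). AT2G31540 was higher by 2.32 ± 0.34 (SE, limma adjusted p = 0.00983), with cnu2 near background at a mean of 2.27. AT3G54580 had 8.27, 8.26 and 8.27 in cnu1, against 6.20, 5.94 and 6.30 in cnu2, and against PMEIox it differed by 0.59 in cnu1 and by -1.53 in cnu2. Against Col-0, AT2G16005 differed by 0.87 in cnu1 and -2.15 in cnu2, and AT2G17080 by 0.35 in cnu1 and -1.81 in cnu2. AT2G31540 differed from Col-0 by 2.41 in cnu1 and 0.08 in cnu2, and AT3G54580 by 2.48 in cnu1 and 0.37 in cnu2.

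Among the named genes, UMAMIT35 (AT1G60050), of a family of amino acid transporters, had 7.30, 7.72 and 7.82 in cnu1, against 5.54, 6.00 and 5.88 in cnu2. It was higher by 1.81 ± 0.23 (SE, limma adjusted p = 0.00437). NUDT8 (AT5G47240), a Nudix hydrolase, had 9.84, 9.72 and 9.89 in cnu1, against 8.02, 8.25 and 8.12 in cnu2, and was higher by 1.68 ± 0.15 (SE, limma adjusted p = 0.000551). SAG29 (AT5G13170), a SWEET sugar transporter of senescing leaves, had 6.21, 6.06 and 6.62 in cnu1, against 4.93, 4.84 and 4.91 in cnu2, and was higher by 1.41 ± 0.21 (SE, limma adjusted p = 0.0101). None of these genes overlapped between the lines. The remaining loci of the 15 largest rises were AT1G63570 at 1.38, AT2G37030, which the gene table also calls SAUR46, at 1.38, and AT4G21250 at 1.35. Against Col-0, AT2G37030 differed by 0.30 in cnu1 and -1.08 in cnu2. AT1G63570 differed from Col-0 by 1.54 in cnu1 and 0.16 in cnu2, and AT4G21250 by 1.38 in cnu1 and 0.03 in cnu2. AT1G63570 was not called without cnu1 B, cnu1 C, cnu2 A or cnu2 C (limma adjusted p from 0.0674 to 0.0858), nor AT4G21250 without any cnu1 array, cnu2 B or cnu2 C (limma adjusted p from 0.0558 to 0.0895).

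The largest fall was that of AT4G38080, with 4.76, 5.17 and 5.09 in cnu1, against 6.83, 7.81 and 6.38 in cnu2. The cnu2 arrays spread over more than 1 unit but stayed above cnu1, and the difference was -2.00 ± 0.36 (SE, limma adjusted p = 0.0309). AT2G22510 had 2.65, 2.83 and 2.42 in cnu1, near background, against 4.21, 5.23 and 3.81 in cnu2, and a difference of -1.78 ± 0.29 (SE, limma adjusted p = 0.0185). Against PMEIox these loci differed by 0.03 and 0.06 in cnu1 and by 2.03 and 1.84 in cnu2. Their calls ended without any cnu1 array, and that of AT4G38080 also without cnu2 A or B (limma adjusted p from 0.0537 to 0.123). In the 6 cnu1 and cnu2 arrays alone neither was called (limma adjusted p = 0.0593 for AT4G38080 and 0.0905 for AT2G22510). AT3G29970 showed the same order, with 5.45, 5.68 and 5.67 in cnu1, against 6.84, 7.19 and 7.32 in cnu2, and a difference of -1.52 ± 0.17 (SE, limma adjusted p = 0.00275).

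At other large falls the cnu1 mean lay below that of PMEIox. AT5G42530 had 5.06, 5.86 and 5.51 in cnu1, against 6.95, 7.06 and 7.37 in cnu2, while PMEIox averaged 9.03. Its difference between the lines was -1.65 ± 0.18 (SE, limma adjusted p = 0.00192). LATE (AT5G48890), a zinc finger gene whose overexpression delays flowering, had 5.40, 5.28 and 5.35 in cnu1, against 6.92, 6.68 and 6.79 in cnu2. Its difference was -1.45 ± 0.18 (SE, limma adjusted p = 0.00433), and the arrays of each line were close together. AT1G68880, listed as bZIP for its leucine-zipper transcription factor, had 3.78, 3.85 and 3.84 in cnu1, against 5.15, 5.06 and 5.45 in cnu2, and a difference of -1.39 ± 0.18 (SE, limma adjusted p = 0.00528). Against PMEIox, AT5G42530 differed by -3.56 in cnu1 and -1.91 in cnu2, LATE by -1.84 in cnu1 and -0.39 in cnu2, and AT1G68880 by -1.17 in cnu1 and 0.23 in cnu2.

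The rest of the 15 largest falls were AT3G60650 at -1.46, AT2G23540 at -1.45, AT4G09530, also called SAUR17, at -1.32, AT3G60647 at -1.26, AT1G53690 at -1.14 and AT3G14380, also called CASPL2A2, at -1.13. AT3G60650 and AT3G60647 are neighbours in the table. A single omitted array ended the call of AT3G60650 (cnu1 A, limma adjusted p = 0.0525) and of AT1G53690 (cnu2 C, limma adjusted p = 0.0526). AT4G09530 was not called without PMEIox A or any compared array but cnu2 B, and AT3G60647 without cnu1 A, cnu1 B, cnu2 A or cnu2 B (limma adjusted p from 0.0524 to 0.128).

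Marker lists for organs and cell types describe what else varied between the seedlings. Of 16 root hair genes 0 were called, 14 differences were above 0 and the median was 0.29. An unadjusted p under 0.05 was found for 7, all higher, where 4.5% of all loci had one with a higher cnu1 value. Their summed level per array was 8.61 to 8.74 on the log2 scale in cnu1, against 8.06 to 8.15 in cnu2, with no overlap. The PMEIox arrays ran from 8.38 to 9.35, a range that takes in that of cnu1. The list median against PMEIox was -0.07 in cnu1 and -0.13 in cnu2. The 2 largest differences were those of RHS19, a peroxidase gene, at 1.48 (limma adjusted p = 0.217) and EXT10, an extensin gene, at 1.21 (limma adjusted p = 0.362), while the regulators RHD6, RSL2 and RSL4 differed by 0.04, 0.17 and 0.19. The sulfate uptake genes, the thalianol genes and AT3G54580 are higher in the same line as these root hair genes, and the part of root hairs in those differences was not tested. The 7 general root genes gave 0 calls (2 at an unadjusted p under 0.05; median 0.09), with summed levels of 8.96 to 8.97 in cnu1, against 8.91 to 9.09 in cnu2. For SHR and SCR, the radial pattern regulators, the differences were 0.39 and 0.09, and for WER, an epidermal regulator, -0.46.

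Seed storage transcripts, left from the embryo, had 0 of 15 called (4 at an unadjusted p under 0.05, all lower; median -0.31). Their summed level per array was 9.50 to 10.8 in cnu1, against 9.56 to 10.8 in cnu2, so the lines overlapped. CRA1, a cruciferin gene, had 8.77, 6.77 and 9.78 in cnu1, against 6.65, 8.71 and 9.24 in cnu2, so that cnu1 B and cnu2 A were low. The 24 genes of photosynthesis and light signalling had 0 called (6 at an unadjusted p under 0.05; median 0.05), with PIF3 at -0.25 and PIL1 at 0.28. Of 11 clock genes 0 were called and 5 had an unadjusted p under 0.05, where 8.55% of all loci had one. ELF4 differed by 0.75 (limma adjusted p = 0.106), PRR9 by -0.83 (limma adjusted p = 0.125) and CCA1 by -0.79 (limma adjusted p = 0.25). The time of day of each harvest was not used here. All 8 cell division genes were above 0 and 0 were called (2 at an unadjusted p under 0.05; median 0.13), with CDKB1;1 at 0.54 (limma adjusted p = 0.285). Lists of 12 flavonoid, 13 cuticle, 12 cold, 7 heat shock, 6 microtubule, 5 germin-like and 9 reference genes had 0 calls each and 1, 3, 2, 1, 1, 1 and 0 members at an unadjusted p under 0.05. The largest median among these was that of the cold genes, at -0.31.

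**Figure D5:**
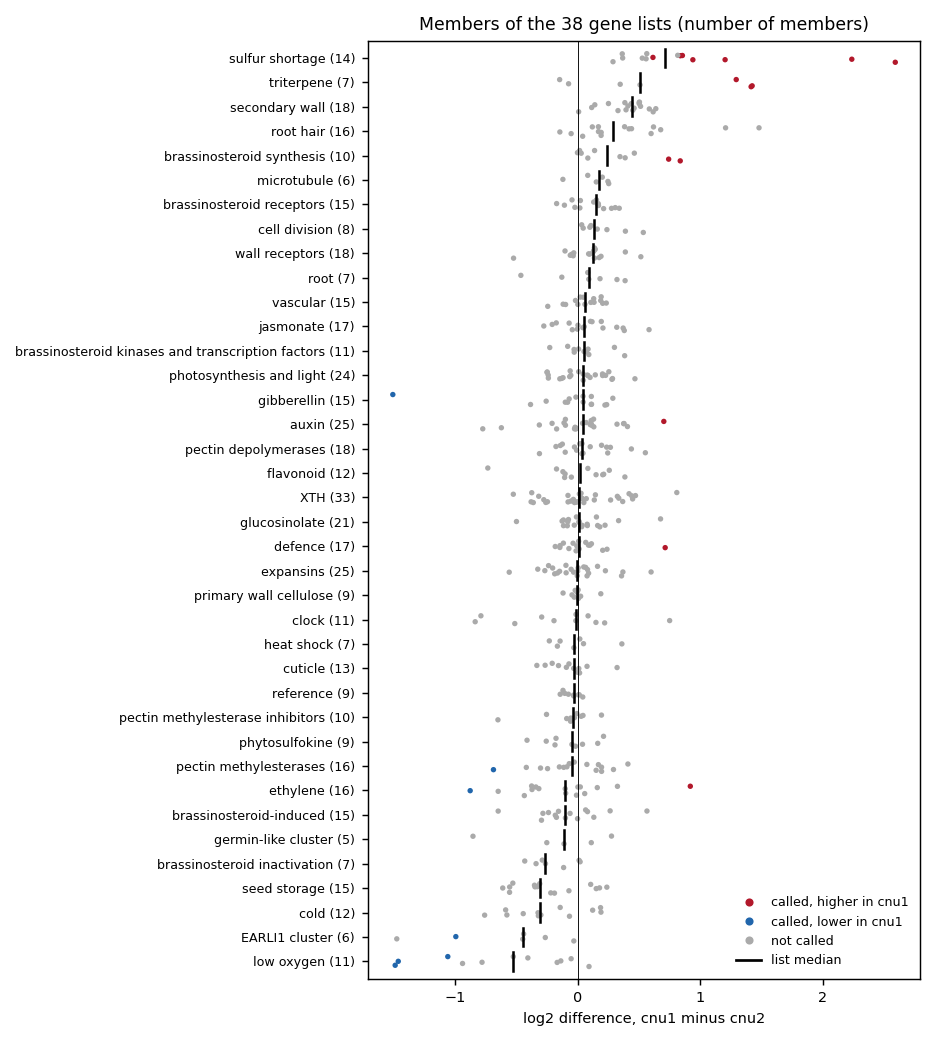
Log2 difference, cnu1 minus cnu2, of every member of the 38 gene lists, 1 list a row with its number of members, ordered by the list median, which the black bar marks. Red points were called higher in cnu1, blue points called lower and grey points not called; sulfur shortage genes lie at the top with a median of 0.72 and low oxygen genes at the bottom with -0.52.

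Called loci were spread over the 5 nuclear chromosomes, from 0.486% of loci on chromosome 1 to 0.761% on chromosome 4. Chromosome 5 had 32 higher and 6 lower in cnu1, and chromosome 1 had 18 higher and 17 lower. Because mutants from a mutagenised population can carry linked changes, the 100 loci nearest each mutated gene were counted as well. Around RLP44, 4 of 100 were called (4%): LSU3 and LSU1 were higher in cnu1, and WIH3 (AT3G49845) at -0.73 and AT3G49970 at -0.88 were lower. Of these, LSU3, WIH3 and AT3G49970 were not called in 7, 9 and 10 of the 12 fits with an array left out. The part of this neighbourhood in the LSU differences was not tested. Around BRI1 1 of 100 was called, AT4G39810 at 0.73. Around PMEI5, which is not the mutated gene of either line, 1 of 100 was called, AT2G31540. That count does not address changes linked to the mutations. Pairs of called loci adjacent in the table numbered 8, of which 7 ran the same way; the exception was LOG5 (AT4G35190), a cytokinin-activating enzyme gene, at -0.87 beside AT4G35200 at 1.08. The calls of AT4G39810, LOG5 and AT4G35200 ended without cnu1 A, cnu1 B, cnu1 C, cnu2 A, cnu2 B or Col-0 A, among other arrays (limma adjusted p from 0.0521 to 0.173).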

How the data were processed

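Seedling RNA was made into biotinylated cRNA for Affymetrix arrays, per the labels. The value table gives 1 log2 value per locus and array, as deposited by the authors and used unchanged. The log base was read from the range of the values, since no label names it. The array type, background correction, probe summary and software are not given in the sources used here. Once sorted, the 12 columns held the same values, so the log2 values had been brought to 1 distribution before they were deposited. Precision is limited by how many arrays there are, and p-values measure the spread between these samples. Depth has no meaning for arrays.

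The test of each difference was limma's (3.58.1, under R 4.3.3), using lmFit with 1 mean per genotype across the 12 arrays and then eBayes (8 residual degrees of freedom, 4.06 prior). Two-sided p-values were adjusted by Benjamini-Hochberg over 27827 loci. Symbols came from the RefSeq table of assembly TAIR10.1, which held 27241 loci and left 586 unmatched. No sequences were used.

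Named genes are the mutated genes BRI1 and RLP44 and the transgene PMEI5, the called loci with separate values in the lines that differ most, 15 in each direction, and, per list, at most 5 members, those of smallest adjusted p. Others named are further members of a list, or are said to be off the lists. The 38 lists held 527 members, of which 523 were used, from 513 loci: 2 were not in the table analysed here and 2 carried another symbol, and 41 were kept by locus alone. The members and lists were chosen with earlier results of these data known. Lists are described by counts and medians, with no test of the list. Same-letter arrays of cnu1 and cnu2 did not deviate together (r = 0.00283, -0.0152 and -0.137 for A, B and C, across loci), so the letters were not taken as pairs. Across the 4 genotypes, however, 9 of the 12 arrays deviated most like an array of their own letter. An effect of the letter is therefore not excluded, and a block for it is among the alternatives.

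Alternatives were quantile normalization, median centring, centring on 9 reference genes, leaving out the lowest 40% of loci, an intensity trend with robust variances (through statmod 1.5.0), weights per array, the 6 compared arrays by themselves, a 2-fold minimum, a block for the replicate letter, and fits without 1 array. The procedure was tested on simulated data. Python 3.11.15 and matplotlib 3.10.9 made the figures.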

Additional observations from a re-analysis of the deposited data

How the results depend on the processing

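The number of loci called between cnu1 and cnu2 was 158, and it was 158 after quantile normalization or median centring, 163 with centring on the reference genes (122 higher and 41 lower), 199 without the lowest 40% of loci and 207 with array weights. It moved by over 1.5 times with trend and robust settings (267), in the cnu1 and cnu2 arrays alone (89) and at a minimum fold of 2 (59). Leaving out a single array gave 66 to 160 loci. The replicate letter as a block gave 172, 130 of them among the 158, and called 6 low oxygen genes in place of 3, while DWF4, CYP81F4 and GGCT2;1 were not called (limma adjusted p = 0.0509, 0.0541 and 0.0665), which left 1 brassinosteroid synthesis gene and 6 sulfur shortage genes; of the 12 arrays 9 correlated best with an array of their own letter, which is a hint from the data and not from the design. The same block within the 6 arrays alone, added after seeing the data, left 2 residual degrees of freedom and 15 loci. No called difference reversed under these settings; 49 of the 158 stayed called in all 12 fits with an array left out, and 14 in every setting run. The causes were not tested, beyond the smaller number of arrays where arrays were left out.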

Other observations

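The genes in this section were chosen after their values were seen, so their tests describe these arrays only. Of 17 SWEET sugar transporters measured, 3 were called higher in cnu1 and 0 lower, where 0.377% of all loci were called higher and 0.19% lower: SAG29, given above, SWEET3 at 0.63 and SWEET11 at 0.48. SWEET11, which loads sucrose toward the phloem, had 11.24, 11.30 and 11.29 in cnu1, against 10.82, 10.88 and 10.71 in cnu2. Among 44 UMAMIT amino acid transporters, UMAMIT35 and UMAMIT8 were called higher and UMAMIT29 lower. An unadjusted p under 0.05 was found for 16, 10 higher and 6 lower in cnu1, where the shares of all loci were 4.5% and 4.05%. The family's median difference was 0.07. UMAMIT8 had 5.24, 5.39 and 5.58 in cnu1, against 4.34, 4.52 and 4.25 in cnu2. Its call ended without cnu1 B, cnu1 C, cnu2 A or cnu2 C (limma adjusted p from 0.0583 to 0.0836), and that of UMAMIT29 without PMEIox B or any cnu1 or cnu2 array (limma adjusted p from 0.0597 to 0.15). The 8 AAP genes measured had a median of -0.09, with 2 differences above 0 and 1 call. AAP2, an amino acid permease of the phloem and that single call, had 8.02, 7.74 and 7.95 in cnu1, against 6.62, 6.62 and 6.67 in cnu2. It was higher by 1.27 ± 0.13 (SE, limma adjusted p = 0.00192) and stayed called in every setting run, whereas SWEET3 and SWEET11 were lost in 11 and 10 of the 12 fits with an array left out (limma adjusted p from 0.0503 to 0.182).

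PBS3, which acts after ICS1 in salicylic acid synthesis, had 4.39, 4.41 and 4.96 in cnu1, against 3.56, 3.19 and 3.24 in cnu2, and was higher by 1.25 ± 0.21 (SE, limma adjusted p = 0.0225). The nuclease genes BFN1 and RNS1, known from dying and senescing cells, were higher by 0.58 and 0.80, and the cysteine protease genes CP1 and CEP2 by 0.85 and 0.74. Without cnu1 A, cnu1 C, cnu2 B or cnu2 C, none of PBS3, BFN1, RNS1, CP1 and CEP2 was called, and other arrays ended some of these calls (limma adjusted p from 0.0548 to 0.143). LRL3, a helix-loop-helix regulator of root hairs, had 5.96, 5.65 and 6.05 in cnu1, against 4.75, 4.96 and 4.87 in cnu2, and was not called without cnu1 A, cnu1 C or any cnu2 array (limma adjusted p from 0.0762 to 0.125). The AGC kinase genes PID, WAG1 and ATPK7, also called D6PKL3, which act on auxin transport, were lower in cnu1, at -0.51, -0.75 and -0.59. The rest of this kinase family was not counted. In the 6 cnu1 and cnu2 arrays alone none of the 3 was called (limma adjusted p = 0.182, 0.0577 and 0.106). PID was not called either with centring on the reference genes (limma adjusted p = 0.0949) or with the replicate letter as a block (limma adjusted p = 0.0541). WAG1 and ATPK7 both lost their calls without cnu1 A, cnu1 B, cnu2 B or cnu2 C, and WAG1 without cnu2 A (limma adjusted p from 0.0648 to 0.106). PID had 7.45, 7.31 and 7.64 in cnu1, against 8.03, 7.98 and 7.92 in cnu2, and its call remained in 1 of the 12 fits with an array left out, that without cnu1 C (limma adjusted p from 0.0599 to 0.169 in the others). SVP, a MADS-box repressor of flowering, had 5.67, 5.69 and 5.51 in cnu1, against 6.37, 6.85 and 6.59 in cnu2, a difference of -0.98 ± 0.14 (SE, limma adjusted p = 0.00937) that stayed called without any single array. E12A11, also called MFT, was lower, with a difference of -0.57 (limma adjusted p = 0.0439), and lost its call in 9 of those 12 fits, among them each without a cnu1 or cnu2 array (limma adjusted p from 0.0575 to 0.164).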
